A study of Homo sapiens with 12 samples.

Results

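The lysosome is acidified by a proton pump, the vacuolar ATPase, and its limiting membrane carries glycoproteins, ion channels and transporters. The 37 genes described here encode subunits of the pump (9 of its membrane V0 sector and 12 of its cytosolic V1 sector), 2 accessory proteins, 5 lysosomal membrane glycoproteins, 6 channels and transporters, and 3 transcription factors of the MiT/TFE family. They were taken by gene symbol, with no measured value used, from the 45478 genes of the deposited count table. All 37 had a row, and 36 passed the filter on low counts. ATP6V1B1, the B subunit of acid-secreting epithelia, did not pass, with 0 to 4 counts in every library.

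RNA sequencing had been done on 12 libraries of human clear cell renal cell carcinoma (ccRCC) lines, 3 in each of 4 groups. 786-O and A498 are established ccRCC lines that both lack functional VHL, the substrate receptor that marks hypoxia-inducible factors for destruction. The Sunitinib-resistant lines of each, called resistant 786-O and resistant A498 here while 786-O and A498 alone mean the parents, had been kept in sunitinib, an inhibitor of receptor tyrosine kinases, at 4 μM and 2 μM respectively, for at least 4 months or over 20 passages. Each resistant line is 1 named line, so selection and the history of that culture cannot be told apart, and the labels give the treatment of the libraries themselves as none, beside a code veh in every title that they do not explain. Each group also carries its own batch label, so batch and group cannot be told apart. Nothing said that the 3 libraries of a group came from separate cultures, and p-values then measure only the spread between these libraries, which may be technical.

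In the vacuolar ATPase the V1 sector hydrolyses ATP and turns a rotor that moves protons through the V0 sector into the lumen, and the gradient drives transporters and hydrolases. TFEB, TFE3 and MITF bind E-box sequences around CACGTG in the promoters of many lysosomal genes, and are held in the cytoplasm when mTORC1 is active on the lysosome. Sunitinib is a weak base that becomes protonated and trapped in acidic lysosomes.

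Library totals ranged from 20042519 to 47972092 counts. Across all 19929 genes tested, 2009 were over 10-fold apart (adjusted p under 0.05) between 786-O and A498, 1576 between the libraries labelled resistant A498 and A498, 754 between the libraries labelled resistant A498 and 786-O, and 69 between the resistant lines. The libraries labelled resistant A498 thus stood closer to the 786-O lines than to their labelled parent, so their values are given against both A498 and 786-O. Resistant 786-O replicate 2 also stood apart, with an SD of log2 differences of 0.282 and 0.287 from replicates 1 and 3, against 0.114 between those 2. Of 9 ccRCC markers, 8 or 9 exceeded 3 counts in some library of each group, but some were near the floor. On a counts-per-million scale (CPM), NDUFA4L2 had group means of 0.474 to 0.572. CA9 was at 1.29 CPM in A498 and at no more than 0.0175 CPM in the other groups. The 9 T cell markers summed to no more than 0.59 CPM and 3 macrophage markers to 0.671 to 3.67 CPM. The 7 melanocyte and osteoclast markers summed to 12.1 to 15.6 CPM in the parents and 37.1 to 73.6 CPM in the resistant lines. In the last list PMEL and ACP5 held most of the sum, and the higher sum of the resistant lines was nearly all ACP5. ACP5 had means of 1.86 CPM in 786-O, 35.1 in resistant 786-O, 0.113 in A498 and 60.9 in resistant A498. PMEL had group means of 10.1 to 12.8 CPM and was not higher in the resistant lines. TYR, DCSTAMP and OCSTAMP were at no more than 3 counts, and the part of these markers in the results was not tested.

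The first question was whether these genes differed between each resistant line and a parent. In resistant 786-O against 786-O, 27 of the 36 genes passed the test (edgeR quasi-likelihood test, Benjamini-Hochberg adjusted p under 0.05 over all genes), 21 of them higher and 6 lower. Over all genes 68.5% passed in this comparison, 35% higher and 33.5% lower. The median log2 fold change of the 36 genes was 0.33, against 0.03 over all genes tested. In the libraries labelled resistant A498 against A498, 24 passed, 18 higher and 6 lower, beside 72.7% of all genes, 36.3% higher and 36.4% lower, with medians of 0.29 and −0.00. Against 786-O, 27 passed for the libraries labelled resistant A498, 22 higher and 5 lower, beside 63.6% of all genes, 31.6% higher and 32.1% lower, with medians of 0.22 and 0.00. Each count is given beside its background, with no test between them. Groups did not overlap for 25, 28 and 32 of the 36 genes in these comparisons, beside 68.9%, 78.5% and 73.4% of all genes. With a fold change over 2 also required, 4, 5 and 3 genes passed, beside 22%, 30.8% and 20%. Many values were small, and removing a trend across all genes on GC content and length moved them: in the same order 1, 3 and 2 genes lost the call, 5, 5 and 2 gained one, and 10, 14 and 3 called values moved by over 1.5 times. The values for named genes stand beside them below.

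The 2 comparisons that use 786-O share those libraries and are given side by side only. Those of each resistant line with its labelled parent share none. In these, 12 genes rose in both: MCOLN1, CLCN7, OSTM1, NPC1, SLC17A5, LAMP1, SCARB2, ATP6AP1, ATP6AP2, ATP6V0A2, ATP6V1G2 and ATP6V1H. Only ATP6V0E2 fell in both. The shares of all genes that rose or fell in both were not computed. SCARB2, ATP6V1H and ATP6V0E2 lost the call against A498 once the trend on GC content and length was removed. ATP6V0A1, ATP6V0D1 and ATP6V1E2 rose in resistant 786-O and fell in resistant A498, whereas ATP6V1B2 and TFE3 did the reverse. In resistant 786-O, OSTM1 lost the call without 786-O replicate 1 or replicate 2. ATP6V1B2, TFE3 and ATP6V0E2 lost it there with library size alone as the scaling, and ATP6V1B2 in most other alternatives too. Further lost calls are given with each gene below. The 37 genes took 0.404% to 0.406% of all counts in 786-O, 0.510% to 0.588% in resistant 786-O, 0.433% to 0.438% in A498 and 0.544% to 0.549% in resistant A498, with no overlap between either resistant line and either parent. These are shares of raw totals, without TMM scaling, and abundant genes such as LAMP1 and CD63 weigh most in them. Scaling by library size alone moved the median log2 fold change of all genes from 0.03 to 0.18 in resistant 786-O, so part of that rise is the scaling.

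**Figure D1:**
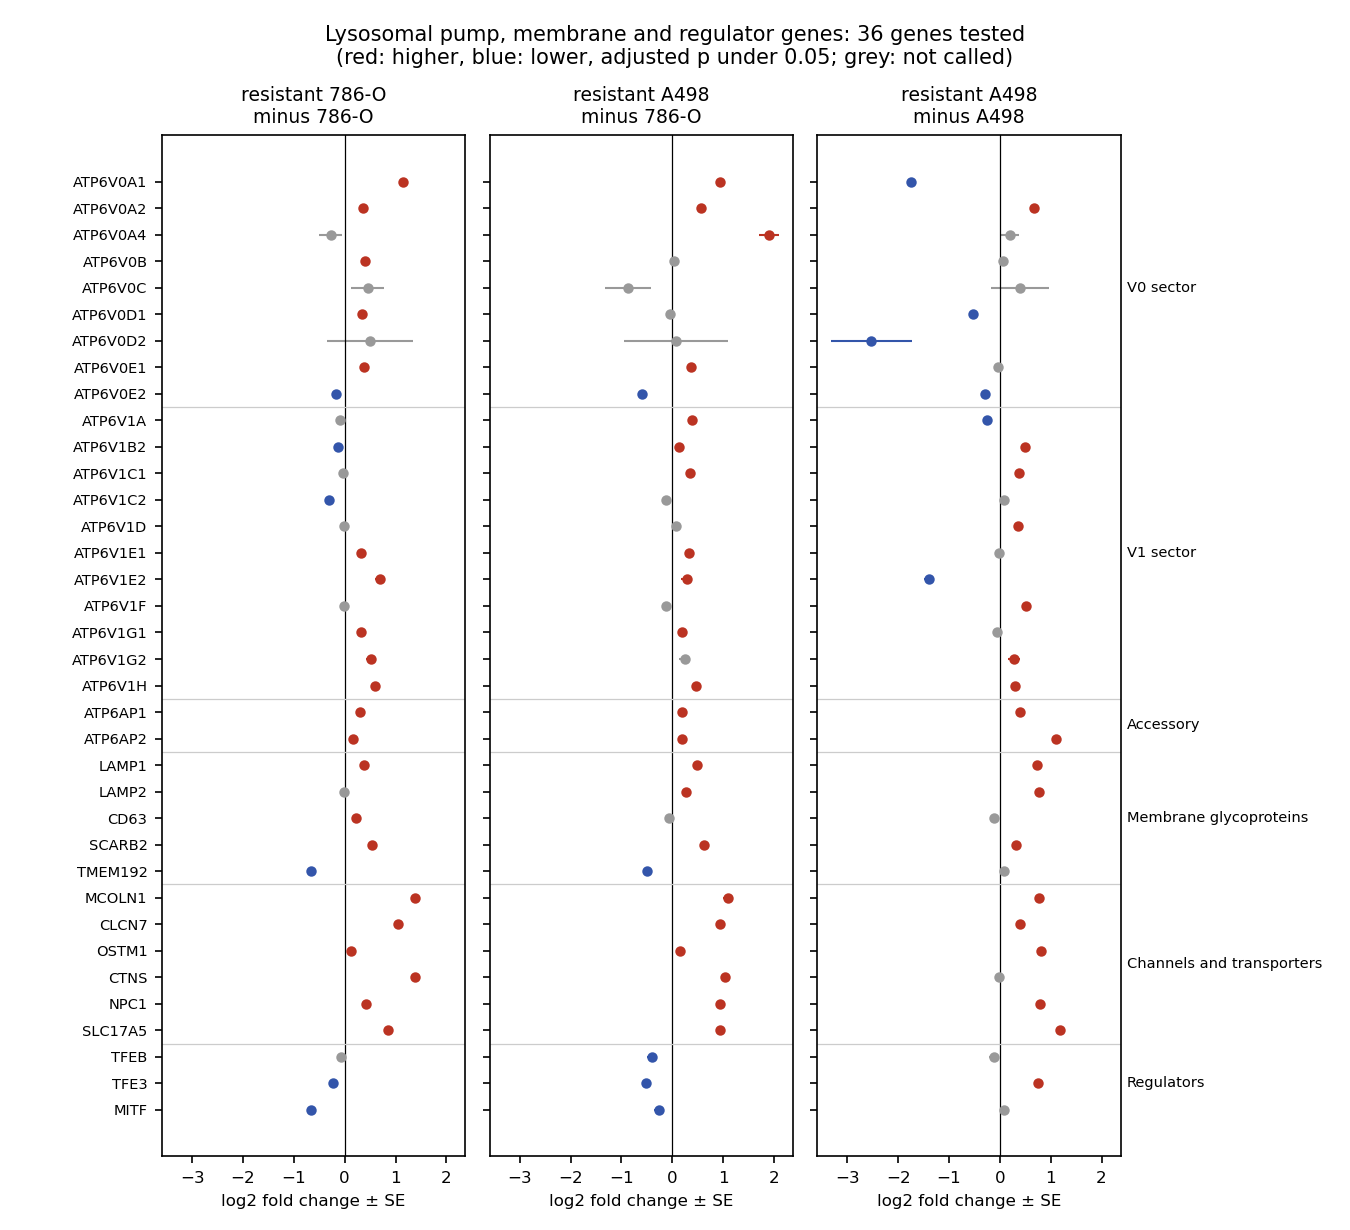
Log2 fold change (horizontal axis, ± SE, n = 3 libraries per group) of the 36 genes tested, ordered by role, in resistant 786-O against 786-O, in the libraries labelled resistant A498 against 786-O, and in those against A498. Red points passed the test as higher and blue points as lower. The channels and transporters lie to the right of 0 in the 2 comparisons with 786-O, and ATP6V0A1 lies on opposite sides of 0 against 786-O and against A498.

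The 6 channels and transporters moved most as a group. All 6 rose in resistant 786-O against 786-O, all 6 rose in resistant A498 against 786-O, and 5 of 6 rose in resistant A498 against A498. Over all genes 35%, 31.6% and 36.3% rose in these comparisons. The median log2 fold changes of the 6 were 0.95, 0.94 and 0.78. Without resistant 786-O replicate 2, all 6 still passed in resistant 786-O.

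MCOLN1 (ENSG00000090674, GRCh38 chr19:7522624-7534009, plus strand) encodes TRPML1, a channel that releases calcium from the lysosome. It stood at 15.6, 16.5 and 15.8 CPM in 786-O replicates 1 to 3 and at 38.5, 48.2 and 38.95 in resistant 786-O. In A498 it stood at 18.7, 19.1 and 21.7 CPM, and at 32.6, 34.3 and 35.1 in resistant A498. Every resistant library was above every parental one. The log2 fold change was 1.39 ± 0.085, adjusted p = 2.1e-09 in resistant 786-O, 1.09 ± 0.087, adjusted p = 4.5e-08 in resistant A498 against 786-O, and 0.78 ± 0.088, adjusted p = 1.2e-06 against A498 (± SE). A read-through gene with no row in the table shares part of its exons, and 4.42% of its exonic bases are shared on the same strand.

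CTNS (ENSG00000040531, chr17:3636459-3663103) encodes cystinosin, which exports cystine from the lysosome. Its 786-O libraries held 18.0, 16.7 and 16.3 CPM and its resistant 786-O libraries 42.8, 45.02 and 45.6. A498 held 33.7, 34.8 and 36.5 CPM and resistant A498 34.7, 33.6 and 35.9. 786-O was thus the low group and resistant 786-O the high one, while A498 and resistant A498 overlapped. Its log2 fold change was 1.39 ± 0.057, adjusted p = 2.8e-11 in resistant 786-O and 1.03 ± 0.058, adjusted p = 1e-09 in resistant A498 against 786-O, and it did not pass against A498 (adjusted p = 0.9), where it became 0.19 and called once the trend on GC content and length was removed.

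CLCN7 (ENSG00000103249, chr16:1444934-1475077, minus strand) encodes the chloride-proton exchanger ClC-7, and OSTM1 its β subunit. CLCN7 stood at 174, 168 and 162 CPM in 786-O and 322, 369 and 349 in resistant 786-O. It stood at 239, 246 and 248 CPM in A498 and 307, 327 and 329 in resistant A498, so both resistant lines were above both parents, and A498 was above 786-O. The log2 fold change was 1.05 ± 0.053, adjusted p = 2.6e-10 in resistant 786-O, 0.93 ± 0.053, adjusted p = 9.8e-10 in resistant A498 against 786-O and 0.39 ± 0.052, adjusted p = 7.2e-06 against A498. With the trend on GC content and length removed, the value fell to 0.57 in resistant 786-O and rose to 0.69 in resistant A498 against A498. OSTM1 was at 68.5 ± 1.64 CPM (SD, n = 3) in 786-O, 74.9 ± 4.43 in resistant 786-O, 43.1 ± 0.849 in A498 and 75.9 ± 0.838 in resistant A498. It rose by 0.82 ± 0.051 on the log2 scale in resistant A498 against A498, or by 0.52 without that trend. In resistant 786-O its change was 0.13 ± 0.049, adjusted p = 0.028, with overlapping groups. This value became 0.47 with that trend removed and 0.20 without resistant 786-O replicate 3, and it lost the call without 786-O replicate 1 (log2 fold change 0.12, adjusted p = 0.093) or without 786-O replicate 2 (0.11, adjusted p = 0.1). Against 786-O in resistant A498 (0.15 ± 0.050, adjusted p = 0.016) the call was also lost without either of those libraries (0.14, adjusted p = 0.059, and 0.13, adjusted p = 0.066), and with the trend removed (0.10).

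SLC17A5 encodes sialin, which exports sialic acid, and NPC1 moves cholesterol out of the lysosome. SLC17A5 was at 32.7 ± 0.753 CPM in 786-O, 59.1 ± 6.19 in resistant 786-O, 27.7 ± 0.717 in A498 and 62.7 ± 1.27 in resistant A498. Its log2 fold change was 0.85 ± 0.064 in resistant 786-O, 0.94 ± 0.065 in resistant A498 against 786-O and 1.18 ± 0.067 against A498. NPC1 was at 193 ± 3.57 CPM in 786-O, 258 ± 5.96 in resistant 786-O, 215 ± 2.74 in A498 and 369 ± 2.13 in resistant A498. It rose by 0.42 ± 0.038, 0.93 ± 0.038 and 0.78 ± 0.038 on the log2 scale in the same order. In both genes no library of a resistant line overlapped a parental one, and NPC1 was higher in resistant A498 than in resistant 786-O (0.51 ± 0.038, adjusted p = 1.5e-07).

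**Figure D2:**
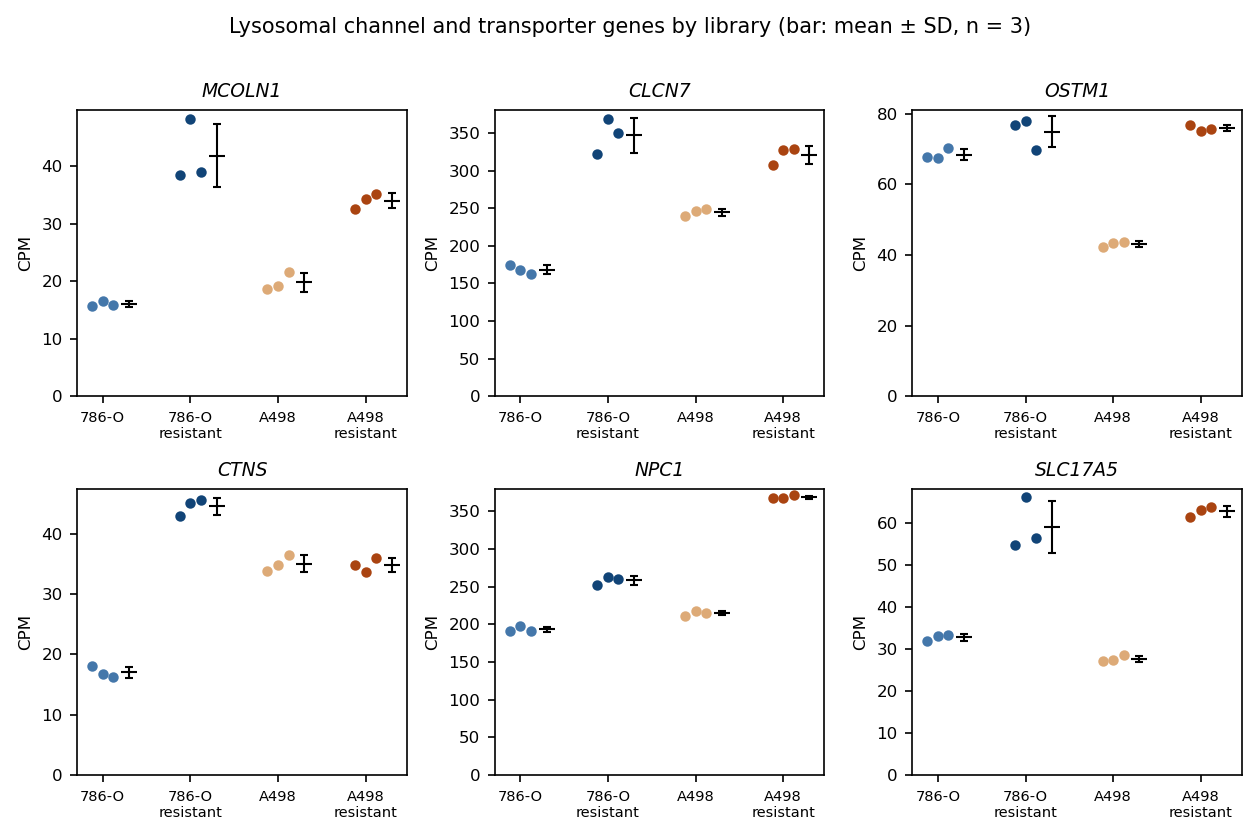
Level in CPM (vertical axis from 0) of the 6 channel and transporter genes in each of the 12 libraries, with the mean ± SD of each group (n = 3) beside the points. The resistant lines lie above both parents for MCOLN1, CLCN7, NPC1 and SLC17A5, whereas CTNS is low in 786-O alone and OSTM1 is low in A498 alone.

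The promoters of these genes were searched for CACGTG, for TCACGTGA and for the CLEAR palindrome (TCACGTGA with a G before and a C after it) in RefSeq windows of 250 bases before to 50 after a start (GRCh38.p14). Each motif reads the same on both strands, and each longer one contains the shorter. Of the 37 genes, 29 had a window. CACGTG was present in 8 of the 29 (27.6%), beside 2396 of 27305 genes in the table (8.77%), and TCACGTGA in 4 (13.8%), beside 1.18%. The CLEAR palindrome was present in 2 (6.9%), ATP6V1G1 and MCOLN1, beside 0.421%. A gene can have several windows, and these shares count it if any of them matched. By window, CACGTG was in 9 of 47 (19.1%), beside 7.26% of 35116. TCACGTGA was in 8.51% of windows beside 0.98%, and the palindrome in 4.26% beside 0.353%. The windows below are those with TCACGTGA, together with CLCN7, shown because these sites are the textbook binding sequence of the MiT/TFE factors. CLCN7 holds CACGTG alone, as do ATP6V0B, ATP6V0E2 and CD63, whose windows are not printed. The windows shown thus do not stand for all 8 genes. Capitals mark the match to the longest of the 3 motifs.
MCOLN1, chr19:7522601-7522624, plus strand, centred 11 bases before the start: ctaccggGTCACGTGACcgaggca
MCOLN1, chr19:7522574-7522597, plus strand, 38 bases before: agaggcggTCACGTGAggggctct
CLCN7, chr16:1475041-1475064, minus strand, 24 bases before: gtcgcgcgtCACGTGgccgccggc
CLCN7, chr16:1475061-1475084, minus strand, 44 bases before: gtcgctcatCACGTGgccccgtcg
LAMP1, chr13:113297202-113297225, plus strand, 25 bases before: ccgcgggaTCACGTGAcgcccggg
LAMP1, chr13:113297229-113297252, plus strand, 2 bases after: ggcgcagcTCACGTGAcaagcgct
ATP6V1G1, chr9:114587702-114587725, plus strand, 55 bases before: ctgtgcgGTCACGTGACaacgggg
ATP6V0D1, chr16:67481202-67481225, minus strand, 56 bases before: ccttatggTCACGTGAggcgcttg

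The other 3 genes with CACGTG were ATP6V0B, ATP6V0E2 and CD63. Of the 8, 7 rose and 1 (ATP6V0E2) fell in resistant 786-O against 786-O, where 21 of the 36 genes rose and 6 fell. In resistant A498, 4 rose and 1 fell against 786-O (22 and 5 of the 36), and 3 rose and 2 fell against A498 (18 and 6). Over all genes 35% rose and 33.5% fell, 31.6% and 32.1%, and 36.3% and 36.4%, in that order. Calls were not compared between genes with and without the motif. CTNS, NPC1, SLC17A5 and OSTM1, which rose in at least 1 comparison, had no CACGTG in these windows.

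Among the membrane glycoproteins, LAMP1 and LAMP2 are the heavily glycosylated proteins that line the lysosome, SCARB2 (LIMP-2) carries glucocerebrosidase to it, CD63 is a tetraspanin of late endosomes and TMEM192 is a lysosomal membrane protein. In resistant 786-O 3 of the 5 rose and 1 fell, against A498 3 of 5 rose in resistant A498, and against 786-O 3 rose and 1 fell. Over all genes 35% rose and 33.5% fell, 36.3% and 36.4%, and 31.6% and 32.1%, in that order. LAMP1 was at 401 ± 3.83 CPM in 786-O, 519 ± 29.99 in resistant 786-O, 340 ± 5.995 in A498 and 563 ± 16.5 in resistant A498, each resistant line above both parents. It rose by 0.37 ± 0.046 on the log2 scale in resistant 786-O, by 0.49 ± 0.046 in resistant A498 against 786-O and by 0.73 ± 0.046 against A498.

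LAMP2 was at 236 ± 0.859 CPM in 786-O and 234 ± 15.5 in resistant 786-O, and the groups overlapped (adjusted p = 0.87). It was at 166 ± 4.11 CPM in A498 and 283 ± 3.48 in resistant A498, a rise of 0.77 ± 0.048 on the log2 scale against A498 and of 0.26 ± 0.047 against 786-O. The difference between its 2 changes was 0.78 ± 0.067, adjusted p = 7.4e-08. Removing the trend on GC content and length made the rise against A498 0.49 and that difference 0.15, and gave resistant 786-O a called rise of 0.34. Scaling by library size alone gave resistant 786-O a called rise of 0.13. SCARB2 rose in all 3 comparisons (0.53, 0.63 and 0.31 on the log2 scale), but against A498 its change was 0.01 with the trend on GC content and length removed.

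TMEM192 stood apart from the others. It fell by 0.67 on the log2 scale in resistant 786-O (adjusted p = 3.7e-06) and by 0.50 in resistant A498 against 786-O (adjusted p = 8.7e-05), from 59.8 ± 2.61 CPM in 786-O to 37.7 ± 5.78 and 42.3 ± 0.584. A498 was already at 39.8 ± 1.70 CPM, and resistant A498 did not pass against it. CD63 was at 544 ± 5.80 CPM in 786-O and 597, 745 and 569 CPM in the 3 libraries of resistant 786-O, where replicate 2 was highest. Its rise of 0.23 ± 0.073 on the log2 scale became 0.10 without that library and 0.37 with library size alone as the scaling.

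Of the 9 V0 genes, 5 rose and 1 fell in resistant 786-O (35% and 33.5% of all genes). In resistant A498, 4 rose and 1 fell against 786-O (31.6% and 32.1%), but 1 rose and 4 fell against A498 (36.3% and 36.4%). The medians were 0.39, 0.07 and −0.04 on the log2 scale. In the V0 sector the a subunit, which forms the proton path with the ring, has 4 paralogs that are thought to direct the pump to different membranes. ATP6V0A1 (ENSG00000033627, chr17:42458844-42522582) stood at 20.6, 19.9 and 20.5 CPM in 786-O and 43.2, 48.6 and 43.3 in resistant 786-O. It stood at 139, 130.1 and 123 CPM in A498 and 38.1, 38.8 and 40.2 in resistant A498. A498 was thus the high group, 786-O the low one, and the resistant lines lay between the parents, without overlap. It rose by 1.15 ± 0.061 on the log2 scale in resistant 786-O and by 0.94 ± 0.063 in resistant A498 against 786-O, and it fell by 1.74 against A498 (adjusted p = 1.5e-12).

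ATP6V0A2, the Golgi and endosome paralog, was at 25.5, 25.7 and 24.97 CPM in 786-O, 33.3, 32.1 and 32.5 in resistant 786-O, 25.4, 22.5 and 22.5 in A498 and 39.1, 36.7 and 36.95 in resistant A498. Both resistant lines lay above both parents, and it rose by 0.36 ± 0.056 on the log2 scale in resistant 786-O, 0.57 ± 0.058 in resistant A498 against 786-O and 0.68 ± 0.059 against A498, of which the last 2 became 0.35 and 0.41 with the trend on GC content and length removed. ATP6V0A4 (ENSG00000105929, chr7:138706294-138799560, minus strand), the paralog of intercalated cells, was low throughout. Its levels were 0.657, 0.569 and 0.754 CPM in 786-O, 0.592, 0.595 and 0.459 in resistant 786-O, 2.03, 2.09 and 2.39 in A498 and 1.98, 3.01 and 2.54 in resistant A498. The lines named A498 and resistant A498 overlapped and lay above both 786-O lines, with a log2 fold change of 1.90 ± 0.20, adjusted p = 8.2e-07 in resistant A498 against 786-O.

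TCIRG1, the a3 paralog of lysosomes and osteoclasts, is not one of the 37 genes, but per kilobase of exon it was the highest a subunit. Per kilobase of exon (RPKM), the 4 paralogs summed to 11.8 ± 0.53 in 786-O, 25.9 ± 1.1 in resistant 786-O, 23.7 ± 0.37 in A498 and 20.2 ± 0.77 in resistant A498 (SD, n = 3). TCIRG1 held 72.7% ± 1.4, 78.6% ± 1.8, 49.4% ± 3.6 and 71.2% ± 0.61 of the sum in that order. ATP6V0A1 held 13.4% ± 0.75, 13.5% ± 1.5, 42.6% ± 3.2 and 14.97% ± 0.37. By this measure the A498 parent alone was divided nearly evenly between the 2 genes. The measure rests on union exon lengths, 12938 bases for ATP6V0A1 and 4598 for TCIRG1. Without division by length, A498 held 130.6 CPM of ATP6V0A1 and 53.9 of TCIRG1, so which gene led there depended on the measure. In the other groups TCIRG1 was the highest by both. TCIRG1 rose by 1.25 ± 0.071 on the log2 scale in resistant 786-O, 0.74 ± 0.072 in resistant A498 against 786-O and 0.29 ± 0.072 against A498.

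**Figure D3:**
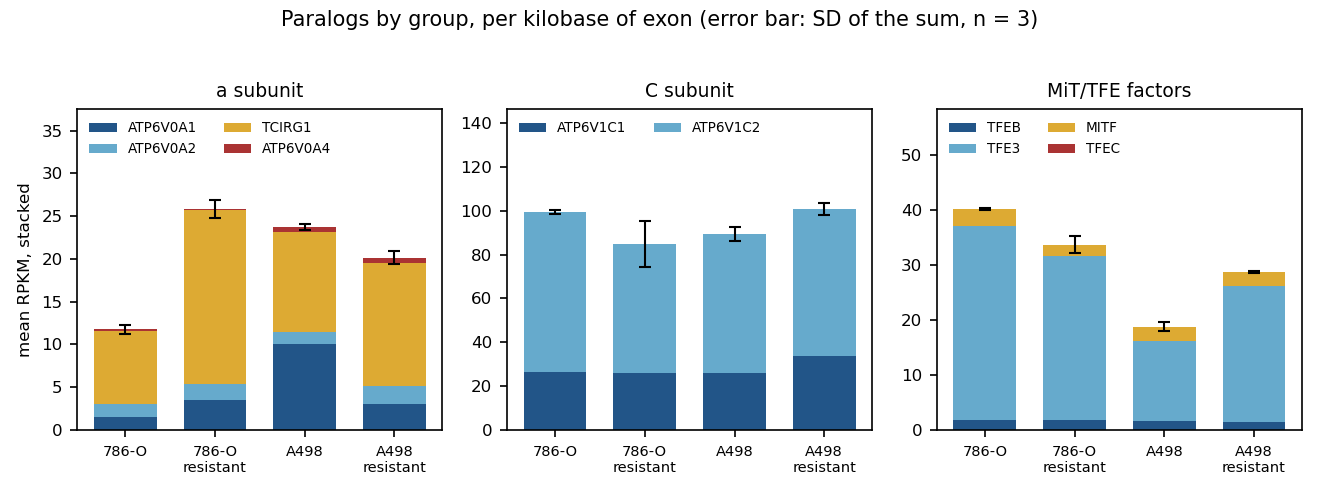
Stacked mean RPKM (vertical axis from 0) of the paralogs of the a subunit, the C subunit and the MiT/TFE factors in the 4 groups, with the SD of the sum over 3 libraries as the error bar. ATP6V0A1 is largest in A498, ATP6V1C2 is the larger part of the C subunit in every group, and TFE3 is the larger part of the MiT/TFE sum in every group.

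ATP6V0D1, the d subunit that links V0 to the rotor, was at 142, 136 and 142 CPM in 786-O, 171, 191 and 169 in resistant 786-O, 192, 199 and 191 in A498 and 137, 133 and 135 in resistant A498. It rose by 0.34 ± 0.049 on the log2 scale in resistant 786-O, and it fell by 0.52 in resistant A498 against A498. Those values became 0.14 and −0.31 with the trend on GC content and length removed. Its paralog ATP6V0D2 held 9, 6 and 7 counts in 786-O, 0, 31 and 4 in resistant 786-O, 24, 35 and 31 in A498 and 6, 3 and 5 in resistant A498. These few counts were highest in A498, and in resistant 786-O nearly all were in replicate 2. ATP6V0D2 fell by 2.53 in resistant A498 against A498 (adjusted p = 0.01), and in resistant 786-O without replicate 2 its log2 fold change was −2.01 and called. Its share of d subunit RPKM was highest in A498, at 1.61% ± 0.61 (SD, n = 3).

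ATP6V0B, the c'' proteolipid, and ATP6V0E1, a small V0 subunit, rose by 0.39 ± 0.068 and 0.39 ± 0.072 on the log2 scale in resistant 786-O, and replicate 2 was the highest library in both. Removing the trend on GC content and length made the rise of ATP6V0B 0.20 and gave it a called rise of 0.43 in resistant A498 against A498. ATP6V0E1 also rose by 0.37 ± 0.073 in resistant A498 against 786-O. ATP6V0E2, its paralog, fell by 0.18 in resistant 786-O (adjusted p = 0.0064), by 0.60 in resistant A498 against 786-O and by 0.30 against A498, and with that trend removed the first became −0.40 and the last −0.07, not called. Scaled by library size alone the first was −0.04 and not called.

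ATP6V0C, which encodes the c proteolipid that makes up most of the rotor ring, held only 1 to 26 counts per library. Of its 1416 exonic bases, 76.3% are shared on the same strand with read-through genes (ENSG00000259784 and ENSG00000260272 in GENCODE 44) that have no row in the table. The part of these shared bases in the low counts was not tested, and its level is not interpreted.

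V1 genes split in resistant 786-O, with 5 of 11 higher and 2 lower (35% and 33.5% of all genes) and a median log2 fold change of −0.01. This count rested on resistant 786-O replicate 2: without it, 5 were higher and 6 lower, and the median was −0.09, since ATP6V1A (−0.17), ATP6V1C1 (−0.09), ATP6V1D (−0.12) and ATP6V1F (−0.14) were then called. In resistant A498 7 of 11 rose and 0 fell against 786-O (median 0.24), and 6 rose and 2 fell against A498 (median 0.28). Over all genes 31.6% rose and 32.1% fell against 786-O, and 36.3% and 36.4% against A498.

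ATP6V1H, a regulatory subunit, rose in all 3 comparisons, by 0.60 ± 0.068, 0.46 ± 0.069 and 0.30 ± 0.069 on the log2 scale, and the last became 0.06, not called, with the trend on GC content and length removed. ATP6V1A, the catalytic subunit, was at 71.9 ± 2.95 CPM in 786-O, 67.6 ± 6.51 in resistant 786-O, 112 ± 5.91 in A498 and 93.8 ± 3.22 in resistant A498. Resistant A498 lay between the parents, 0.38 above 786-O on the log2 scale, and it fell by 0.26 against A498. Removing the trend on GC content and length made that fall −0.52 and gave resistant 786-O a called rise of 0.15.

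ATP6V1B2, the B subunit of most tissues, stood at 118, 116 and 116 CPM in 786-O, 100.4, 116 and 99.95 in resistant 786-O, 91.1, 90.6 and 92.4 in A498 and 131, 127 and 127 in resistant A498. It rose by 0.49 ± 0.055 on the log2 scale in resistant A498 against A498, or by 0.23 with the trend on GC content and length removed. In resistant 786-O its change was −0.14 ± 0.054, adjusted p = 0.031, and the groups overlapped. That call was lost in 12 of 15 alternatives, among them without 786-O replicate 1 (−0.14), replicate 2 (−0.15) or replicate 3 (−0.15), without resistant 786-O replicate 1 or 3 (−0.08 for each), and with that trend removed (−0.01). Without resistant 786-O replicate 2 it was kept, at −0.22. Against 786-O in resistant A498 (0.14 ± 0.054, adjusted p = 0.033) it was lost without any one 786-O replicate (0.13 to 0.15) or without resistant A498 replicate 1 (0.15), and with the trend removed (0.07). ATP6V1B1 held no more than 0.231% ± 0.32 of B subunit RPKM in any group (SD, n = 3). That value was in A498, where its libraries had 1, 4 and 0 counts. Of its exonic bases 63.1% are shared on the same strand with another gene, and groups are not ranked by it.

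The C subunit, which holds V1 and V0 together, came mainly from ATP6V1C2, at 73.2% ± 0.56 of C subunit RPKM in 786-O, 69.3% ± 1.9 in resistant 786-O, 71.1% ± 0.65 in A498 and 66.5% ± 0.67 in resistant A498. ATP6V1C2 stood at 252, 253 and 260.3 CPM in 786-O, 196, 241 and 182 in resistant 786-O, 232, 224 and 212 in A498 and 245, 232 and 228 in resistant A498. It fell by 0.31 on the log2 scale in resistant 786-O (adjusted p = 0.0029), where no library overlapped 786-O, and replicate 2 was closest to it. The fall was −0.20 without resistant 786-O replicate 3, and −0.16 and not called with library size alone as the scaling. ATP6V1C1 stood at 156, 158 and 154 CPM in 786-O, 151, 161 and 143 in resistant 786-O, 154, 151 and 149 in A498 and 200.1, 195 and 198 in resistant A498. Resistant A498 was the high group, by 0.34 ± 0.046 against 786-O and 0.39 ± 0.046 against A498 on the log2 scale. That order depended on the setting: with the trend on GC content and length removed the value against A498 was 0.11, and resistant 786-O had a called rise of 0.33 against 786-O.

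ATP6V1E1, the peripheral stalk subunit, stood at 194, 186 and 190.1 CPM in 786-O, 226, 274 and 217 in resistant 786-O, 252, 237 and 242 in A498 and 248, 239.8 and 234 in resistant A498. 786-O was the low group, and its log2 fold change was 0.33 ± 0.069 in resistant 786-O (0.22 without replicate 2) and 0.34 ± 0.069 in resistant A498 against it. ATP6V1E2, its testis-enriched paralog, stood at 3.36, 3.75 and 3.75 CPM in 786-O, 5.82, 5.79 and 5.95 in resistant 786-O, 12.4, 11.7 and 10.8 in A498 and 4.77, 4.40 and 4.07 in resistant A498. Like ATP6V0A1 it was highest in A498. It rose by 0.69 ± 0.095 on the log2 scale in resistant 786-O and fell by 1.40 in resistant A498 against A498 (adjusted p = 4.5e-09). Its value in resistant A498 against 786-O (0.29 ± 0.10, adjusted p = 0.026) lost the call without 786-O replicate 1 (0.23) or resistant A498 replicate 1 (0.25).

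ATP6V1G1, the G subunit of the stalk, stood at 106, 102 and 107 CPM in 786-O, 131, 144 and 119.6 in resistant 786-O, 120, 131 and 124 in A498 and 119.6, 119 and 119.5 in resistant A498. It rose by 0.33 ± 0.059 on the log2 scale in resistant 786-O (0.55 with the trend on GC content and length removed), and by 0.19 ± 0.060 in resistant A498 against 786-O, where it lost the call without 786-O replicate 2 (0.17). ATP6V1G2, the neuronal paralog, stood at 4.78, 4.03 and 4.61 CPM in 786-O, 5.72, 6.55 and 6.99 in resistant 786-O, 4.43, 4.51 and 4.16 in A498 and 5.18, 5.50 and 5.24 in resistant A498. It rose by 0.52 ± 0.10 in resistant 786-O. Against A498 its change in resistant A498 was 0.28 ± 0.11, adjusted p = 0.037, and the call was lost without any one A498 replicate (0.25 to 0.30) or resistant A498 replicate 2 (0.29), while removing that trend gave 0.45. A read-through gene shares 13.5% of its exonic bases. ATP6V1D and ATP6V1F, subunits of the rotor shaft, rose by 0.36 ± 0.075 and 0.52 ± 0.073 in resistant A498 against A498 and did not pass against 786-O in either resistant line. With the trend removed ATP6V1D rose by 0.17 against A498, and by a called 0.22 in resistant 786-O.

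Both accessory proteins rose in all 3 comparisons, beside 35%, 31.6% and 36.3% of all genes in the order given next. ATP6AP1, an assembly factor that is part of V0, was at 219 ± 8.37 CPM in 786-O, 272 ± 15.6 in resistant 786-O, 190.1 ± 3.29 in A498 and 249 ± 6.95 in resistant A498. Its log2 fold change was 0.31 ± 0.048, 0.18 ± 0.049 and 0.39 ± 0.049 in resistant 786-O, resistant A498 against 786-O and resistant A498 against A498. Removing the trend on GC content and length made the first 0.13 and the last 0.62. ATP6AP2, the prorenin receptor, was at 124 ± 0.127, 139 ± 9.93, 65.8 ± 2.02 and 142 ± 4.36 CPM in 786-O, resistant 786-O, A498 and resistant A498. A498 was the low group, so its log2 fold change was 1.11 ± 0.054, adjusted p = 6.5e-11 against A498, and 0.17 ± 0.051 and 0.20 ± 0.052 against 786-O, of which the first became 0.37 with that trend removed. Library size alone as the scaling gave 0.34 for ATP6AP1 in resistant A498 against 786-O, and 0.31 and 0.35 for ATP6AP2 in resistant 786-O and resistant A498 against 786-O.

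The 3 transcription factors did not rise against 786-O. TFE3 (ENSG00000068323, chrX:49028726-49043410, minus strand) held 87.4% ± 0.093 of MiT/TFE RPKM in 786-O, 88.6% ± 0.53 in resistant 786-O, 78.1% ± 0.77 in A498 and 85.8% ± 0.62 in resistant A498. It stood at 148, 147 and 148 CPM in 786-O, 119, 132 and 125 in resistant 786-O, 59.1, 60.9 and 64.6 in A498 and 103, 105 and 103 in resistant A498. No groups overlapped, and the order was 786-O, resistant 786-O, resistant A498, A498. TFE3 fell by 0.24 on the log2 scale in resistant 786-O (adjusted p = 4e-04) and by 0.51 in resistant A498 against 786-O, and rose by 0.75 ± 0.049 against A498. With library size alone as the scaling the value in resistant 786-O was −0.09 and not called, and with the trend on GC content and length removed it was −0.45.

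MITF stood at 22.7, 23.4 and 23.97 CPM in 786-O, 16.2, 12.8 and 15.3 in resistant 786-O, 17.02, 19.1 and 18.9 in A498 and 18.96, 18.5 and 20.8 in resistant A498. Resistant 786-O was the low group, with a log2 fold change of −0.66 ± 0.083, adjusted p = 4.7e-06 against 786-O, whereas A498 and resistant A498 overlapped. In resistant A498 against 786-O the value was −0.27 ± 0.084, adjusted p = 0.012, and it lost the call without resistant A498 replicate 1 (−0.23) or replicate 2 (−0.21), and with library size alone as the scaling (−0.12). TFEB stood at 13.5, 12.9 and 12.1 CPM in 786-O, 10.6, 13.6 and 12.5 in resistant 786-O, 10.2, 10.97 and 10.5 in A498 and 10.4, 9.28 and 9.46 in resistant A498. The value in resistant 786-O was −0.07 ± 0.089, adjusted p = 0.5, with overlapping groups, and turned to 0.05 without resistant 786-O replicate 1 and to 0.07 with library size alone as the scaling. With the trend on GC content and length removed it was −0.45 and called. In resistant A498 against 786-O, TFEB fell by 0.40 (adjusted p = 0.0019), or by 0.25 with library size alone as the scaling.

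The other 11 genes listed as known MiT/TFE targets or family members mostly rose against 786-O. In resistant 786-O 10 of 11 rose and 0 fell (35% and 33.5% of all genes), and in resistant A498 8 rose and 0 fell (31.6% and 32.1%), with medians of 0.39 and 0.40 on the log2 scale. Without resistant 786-O replicate 2, 9 rose and 1 fell. Against A498, 5 rose and 4 fell in resistant A498 (36.3% and 36.4%), with a median of −0.02. FLCN, FNIP2 and RRAGD of this list are also in the list on mTORC1.

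RRAGD (ENSG00000025039, chr6:89364616-89412273, minus strand), a GTPase that tethers mTORC1 to the lysosome, stood at 0.867, 0.957 and 0.865 CPM in 786-O and 26.8, 33.4 and 26.1 in resistant 786-O. It stood at 15.7, 14.6 and 13.3 CPM in A498 and 36.6, 35.4 and 35.7 in resistant A498, so 786-O was far below the other groups and both resistant lines were above A498. The log2 fold change was 5.00 ± 0.13, adjusted p = 1.9e-13 in resistant 786-O, 5.32 ± 0.13 in resistant A498 against 786-O and 1.30 ± 0.092 against A498. GPNMB, a lysosomal glycoprotein, stood at 0.499, 0.672 and 0.532 CPM in 786-O, 11.1, 22.9 and 11.2 in resistant 786-O, 74.4, 68.5 and 65.7 in A498 and 19.3, 20.95 and 20.1 in resistant A498. It was highest in A498, so it rose by 4.72 ± 0.32 and 5.14 ± 0.32 against 786-O and fell by 1.79 in resistant A498 against A498.

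PPARGC1A, a coactivator of mitochondrial genes, stood at 0.973, 0.957 and 1.38 CPM in 786-O, 7.39, 7.67 and 7.17 in resistant 786-O, 0.955, 0.650 and 0.588 in A498 and 14.4, 15.4 and 15.3 in resistant A498. It was higher in both resistant lines than in either parent, by 2.73 ± 0.14, 3.75 ± 0.14 and 4.31 ± 0.16 on the log2 scale in resistant 786-O, in resistant A498 against 786-O and in resistant A498 against A498. GABARAPL1, an autophagosome protein, rose by 1.06, 1.79 and 0.27 in the same order, and FLCN, which lets mTORC1 act on the MiT/TFE factors, rose by 0.39 and 0.30 against 786-O and fell by 0.64 against A498.

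**Figure D4:**
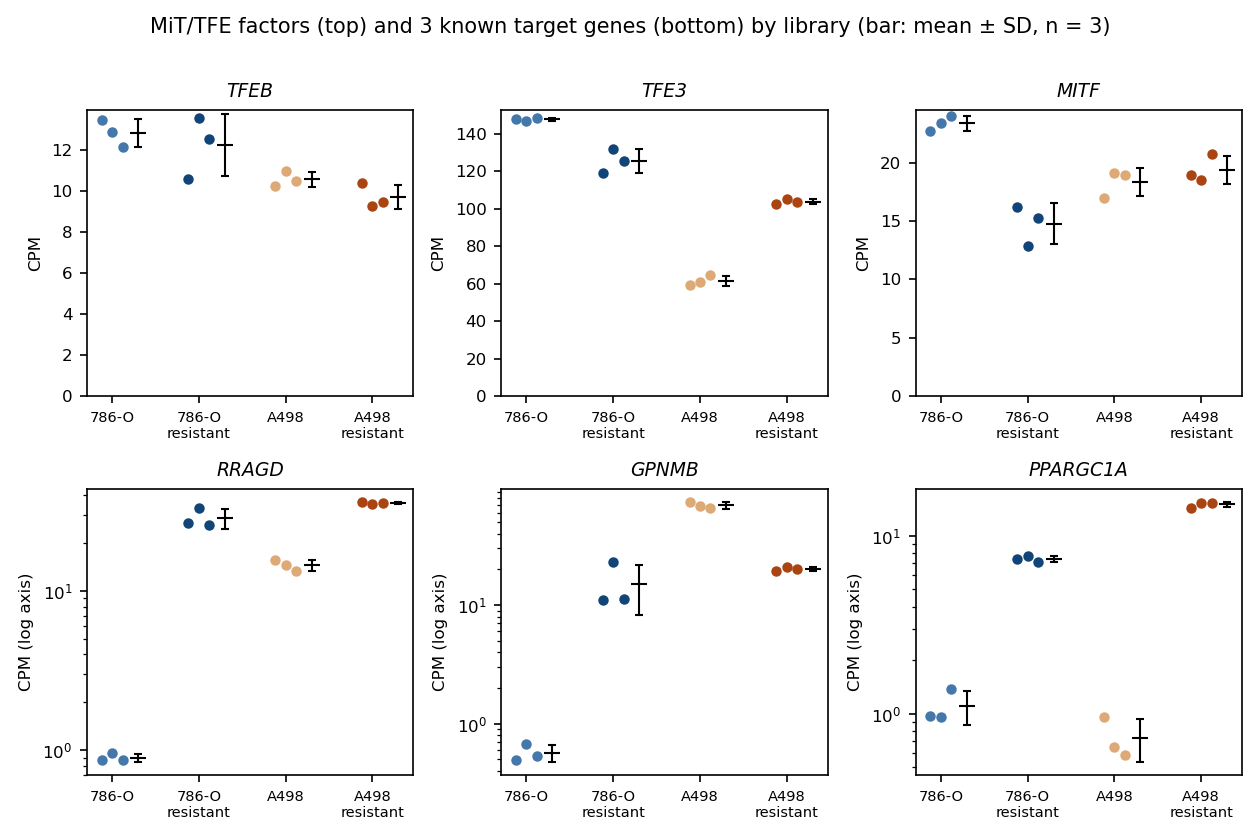
Level in CPM of TFEB, TFE3 and MITF (top, vertical axis from 0) and of RRAGD, GPNMB and PPARGC1A (bottom, log axis) in each of the 12 libraries, with the mean ± SD of each group (n = 3). The factors are lower or overlapping in the resistant lines against 786-O, whereas RRAGD, GPNMB and PPARGC1A are higher in them than in 786-O.

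Among 28 other lysosomal membrane genes tested, 17 rose and 3 fell in resistant 786-O (beside 35% and 33.5% of all genes), 17 rose and 2 fell in resistant A498 against 786-O (31.6% and 32.1%), and 15 rose and 5 fell against A498 (36.3% and 36.4%), with medians of 0.48, 0.41 and 0.18 on the log2 scale. MCOLN3, the paralog of MCOLN1, was at 0.809 ± 0.0986 CPM in 786-O, 14.8 ± 1.80 in resistant 786-O, 3.38 ± 0.214 in A498 and 11.9 ± 0.359 in resistant A498, a rise of 4.19, 3.87 and 1.83. ABCA2, a lysosomal lipid transporter, rose by 2.00, 1.36 and 1.62, and its resistant 786-O libraries held 455, 296 and 496 CPM, with replicate 2 the lowest. The list counts include CD68 and CLN3, at 0.179 to 1.08 CPM, which share 81.6% and 25.3% of exonic bases on the same strand with other genes. The part of this in their levels was not tested.

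Of 12 other pump and assembly genes tested, 6 rose and 2 fell in resistant 786-O, 7 rose and 2 fell in resistant A498 against 786-O, and 7 rose and 5 fell against A498, beside the same shares of all genes. Among them RNASEK and ROGDI, at 3.38 to 5.68 CPM, share 36.9% and 39.1% of exonic bases on the same strand with other genes, and the part of this was not tested. VMA21, an assembly chaperone of V0, was at 81.3 ± 2.46 CPM in 786-O, 24.4 ± 2.31 in resistant 786-O, 36.9 ± 1.70 in A498 and 45.1 ± 1.77 in resistant A498. It fell by 1.74 on the log2 scale in resistant 786-O (adjusted p = 1.2e-11) and by 0.85 in resistant A498 against 786-O, and rose by 0.29 ± 0.067 against A498. The list on mTORC1 held 15 genes, of the Ragulator and Rag GTPases that dock it on the lysosome, the folliculin complex and mTORC1 itself. Of these, 8 rose and 2 fell in resistant 786-O, and 7 rose and 4 fell in resistant A498 against 786-O. Against A498 7 rose and 6 fell, beside those shares again. The medians were 0.16, 0.05 and −0.08, beside 0.03, 0.00 and −0.00 over all genes.

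Between the parents, 31 of the 36 genes passed the test, 16 with more and 15 with less RNA in 786-O, beside 74.2% of all genes (38.2% and 36.1%). Groups did not overlap for 33 genes (80.2% of all genes), and 7 were over 2-fold apart (31.9%). Between the resistant lines 22 passed, 9 with more and 13 with less RNA in resistant A498, beside 46.1% of all genes (23% and 23%). Groups did not overlap for 22 (51.7%), and 2 were over 2-fold apart (7.3%). For 19 of the 36 genes the mean CPM of resistant A498 was closer, as a log2 ratio, to that of 786-O than to that of A498. For 24 it was closer to that of resistant 786-O than to that of A498. These shares over all genes were not computed. The change in resistant A498 against A498 differed from the change in resistant 786-O against 786-O for 29 of the 36 genes, beside 68.3% of all genes, 15 of them higher and 14 lower (33.9% and 34.4% of all genes), and for 4 the 2 changes were over 2-fold apart (35.1%).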

How the data were processed

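Poly(A) RNA of the 12 samples had been made into libraries with a strand-specific kit. Per the submitters' processing notes and the study's methods, the authors demultiplexed with bcl2fastq 2.19.0, trimmed with Trimmomatic 0.36.6, aligned to GRCh38 with HISAT2 2.1.0 and counted reads per gene with featureCounts 1.6.3 in a stranded mode on GENCODE annotation. The deposited values are raw counts for 45478 genes. Reads over genes that overlap on 1 strand can be set aside by such counting.

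Counts were tested with edgeR 4.0.16 (filterByExpr, TMM scaling, quasi-likelihood test, Benjamini-Hochberg adjustment over 19929 genes, threshold 0.05) in R 4.3.3, in 1 fit over the 4 groups with no covariate. The study's methods compared gene counts with a different 2-sample test, and a count model was used instead. CPM used TMM library sizes, and RPKM the union exon length in GENCODE 44. Library totals limit the precision, and intervals from counting alone were not given. The model was tested on simulated counts. Alternatives were DESeq2 1.42.0, other scalings, filters, prior counts, a GC and length trend, a replicate block and each library left out.

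Every listed gene was accounted for. Values in each library were given for genes that passed the test with a log2 fold change of at least 1 against parental 786-O, for the 3 transcription factors and for the paralog sets. RRAGD, GPNMB and PPARGC1A, and other genes of the 4 further lists, were picked for printing after their values were seen. The genes and lists were chosen with earlier results of these data known. Figures used Python 3.11.15 and matplotlib 3.10.9.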

Additional observations from a re-analysis of the deposited data

Results flagged for a closer look

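For 29 genes the change in the libraries labelled resistant A498 against A498 differed from the change in resistant 786-O against 786-O (edgeR quasi-likelihood test of the interaction, adjusted p under 0.05, n = 3 per group), beside 68.3% of all genes tested. The value is the first log2 fold change minus the second. It was above 0 for 15 genes, TFE3 (0.99), ATP6AP2 (0.94), LAMP2 (0.78), TMEM192 (0.75), MITF (0.75), OSTM1 (0.69), ATP6V1B2 (0.63), ATP6V1F (0.53), ATP6V1C1 (0.42), ATP6V1C2 (0.39), ATP6V1D (0.37), NPC1 (0.36), LAMP1 (0.35), SLC17A5 (0.33), ATP6V0A2 (0.31). It was below 0 for 14 genes, ATP6V0D2 (−3.02), ATP6V0A1 (−2.89), ATP6V1E2 (−2.09), CTNS (−1.40), ATP6V0D1 (−0.86), CLCN7 (−0.66), MCOLN1 (−0.61), ATP6V0E1 (−0.43), ATP6V1G1 (−0.39), ATP6V1E1 (−0.35), CD63 (−0.34), ATP6V0B (−0.33), ATP6V1H (−0.30), SCARB2 (−0.22). The value for ATP6V0A1 joined a rise of 1.15 in resistant 786-O to a fall of 1.74 in resistant A498, and that for TFE3 a fall of 0.24 to a rise of 0.75. The libraries labelled resistant A498 stood closer to 786-O than to A498 across all genes, and these differences rest on A498 as the reference. Whether that bears on them was not tested. With the trend on GC content and length removed, 8 of the 29 lost the call: ATP6V0A2 (0.12), ATP6V1C2 (0.21), ATP6V1D (−0.06), CD63 (−0.08), MCOLN1 (0.06), CLCN7 (0.13), OSTM1 (0.05) and SLC17A5 (−0.03). ATP6V0B (0.22) and ATP6V1C1 (−0.21) changed sign and stayed called, and 22 values in all moved by over 1.5 times. SCARB2 lost the call in 8 of 20 alternatives, 7 of them leaving out 1 library (−0.20 to −0.19). ATP6V0D2 lost it in 8 of 19, each leaving out 1 library, and was −0.49 without resistant 786-O replicate 2. Without that library ATP6V0B (−0.22), ATP6V1E1 (−0.23), ATP6V1H (−0.20), CD63 (−0.20) and SCARB2 (−0.13) also moved by over 1.5 times and stayed called.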

How the results depend on the processing

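Over 108 gene results, of which 107 had passed the test and 1 was TFEB in resistant 786-O, 1673 of 1763 alternatives kept direction and side of the threshold. Of the rest, 73 lost the call with the sign kept, 2 gained it (TFEB) and 15 changed sign. Some of these 15 lost the call as well. Over the 37 gene results that had not passed, TFEB included, 54 of 580 alternatives gained the call, in 23 results, 16 of them with the GC content and length trend removed. The counts of genes passing kept within 1.5 times except as follows. With a fold over 2 also required they were 4 in resistant 786-O against 786-O, 5 in resistant A498 against A498, 3 against 786-O, 7 between the parents, 2 between the resistant lines and 4 for the difference between the changes. With a GC content and length trend removed, alone or with the replicate block, 14 passed between the resistant lines. Scaling by library size alone moved the median of all genes from 0.03 to 0.18 in resistant 786-O and from 0.00 to 0.15 in resistant A498 against 786-O, and the higher share of calls from 51.1% to 62.4% and from 49.6% to 62.5%. With it ATP6V1B2 (0.002) and TFEB (0.072) changed sign in resistant 786-O. With GC content and length trend removed the difference between the changes turned to 0.22 for ATP6V0B, −0.213 for ATP6V1C1, −0.056 for ATP6V1D, 0.059 for MCOLN1, 0.127 for CLCN7 and −0.034 for SLC17A5, and with the replicate block added to 0.222, −0.213, −0.055, 0.059, 0.129 and −0.035. The cause was not tested.

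Leaving out 1 library at a time gave 25 to 32 genes in resistant 786-O (32 without its replicate 2), 23 to 24 in resistant A498 against A498, 24 to 27 against 786-O, 28 to 30 between the parents, 17 to 29 between the resistant lines and 27 to 30 for the difference. TFEB in resistant 786-O ranged from −0.153 to 0.049, and was −0.449 and called with the GC content and length trend removed. The counts of the 4 further lists stayed within 1.5 times under the alternatives added after seeing the data.

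Replicate numbers did not pair the samples: deviations from group means of same-numbered samples correlated at −0.086 to 0.044 over 18 pairs. With the replicate block, 27, 23, 27, 31, 20 and 29 genes passed in the order above, and ATP6V1G2 against A498 lost its call. The difference between the changes uses all 12 libraries, so a fit on the compared libraries alone gave no further value.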
